A study of Mus musculus with 4 samples.

Results

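ATP-binding cassette (ABC) genes were taken from the gene table of mouse ID8 ovarian cancer cells as the rows whose symbol starts with Abc, a letter from a to g and a digit. The rule found 50 of the 22063 genes listed, and 48 are described, 16 in subfamily A, 9 in B, 10 in C, 3 in D, 1 in E, 3 in F and 6 in G. Poly(A)-selected RNA was sequenced from ID8 cells, a mouse ovarian cancer line, that carried a control shRNA (shCtrl, labelled WT, 2 libraries) or an shRNA against USP9X (shUSP9X, labelled as a knockdown, 2 libraries). USP9X is a deubiquitylating enzyme, and the study asked how its loss bears on TGF-β and hypoxia signaling, stemness and drug resistance in ovarian cancer. The labels give no treatment or time, name no shRNA sequence for a library, and do not say whether the libraries of a group came from separate cultures, so that p-values measure the spread between these libraries, which may be technical. The 2 shCtrl libraries held 17232006 and 15611363 counts in total and the 2 shUSP9X libraries 19978889 and 17021261.

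ABC proteins bind and hydrolyse ATP at a pair of conserved nucleotide-binding domains. In subfamilies A, B, C, D and G this drives lipids, peptides, metal complexes, metabolites or drugs across a membrane, whereas E and F proteins have no membrane-spanning part and act on ribosomes and translation. In ovarian cancer cells the family is best known for the efflux pumps that lower the intracellular level of paclitaxel, doxorubicin and other drugs, encoded by genes of the B, C and G subfamilies.

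Usp9x itself (ENSMUSG00000031010, chrX:13071498-13173328, plus strand, GRCm38) had 5169 and 4453 counts in shCtrl against 390 and 346 in shUSP9X. Its level was 14.4-fold lower in shUSP9X, with a log2 fold change of -3.85 ± 0.06 (SE, n = 2 libraries per group; edgeR quasi-likelihood test, adjusted p = 4.7e-26), the direction its labels give. Of 10 marker genes of ovarian surface epithelium, the tissue of origin of the line, Krt19 was the most abundant in shUSP9X, at 703 and 711 CPM (a count scaled to library size) in shCtrl against 786 and 751 in shUSP9X, and Krt7 lay at 3 counts or fewer in each library. Of the 8 tested markers of this list 4 were lower, 3 higher and 1 not called, where 33.6% of all genes tested were lower and 33.8% higher. In this fit Krt8 and Krt18, keratins of simple epithelia, were the genes of the list past 1.5-fold. Krt8 went from 314 and 324 to 602 and 602 CPM, and Krt18 from 391 and 372 to 600 and 592 CPM. Wt1, a transcription factor of mesothelium and ovarian surface, went from 358 and 373 to 256 and 252 CPM, and Msln, which encodes mesothelin, from 473 and 492 to 352 and 346 CPM. The summed level of the 10 was 2580 and 2620 CPM in shCtrl against 2900 and 2840 in shUSP9X.

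Markers of other cell types also differed between the groups. The 10 macrophage and monocyte markers summed to 10.7 and 10.7 CPM in shCtrl against 21.9 and 20.6 in shUSP9X, with Cd14 the most abundant at 10.3 and 9.85 CPM in shUSP9X. Adgre1, which encodes F4/80, had 0 and 0 counts in shCtrl against 58 and 59 in shUSP9X. Ptprc and Csf1r were likewise at 0 in shCtrl, with 29 and 18 counts and 17 and 13 counts in shUSP9X, whereas C1qa, C1qb and Fcgr1 were at 0 in each library. Mrc1 stayed low, at 0.461 and 0.822 CPM in shCtrl against 0.405 and 0.237 in shUSP9X, and Lyz2 was at 0, 0, 0 and 2 counts. Adgre1, Ptprc and Csf1r passed the count filter of the test through shUSP9X alone, so that no weight is put on their calls as higher. Of the other 2 tested macrophage genes, Cd14 was higher (33.8% of all genes tested were) and Cd68 was not called. The 3 tested fibroblast genes were lower (33.6% of all genes tested were), including Col1a1, at 67.7 and 78.7 CPM in shCtrl against 22.9 and 21.5 in shUSP9X, while Lum and Thy1 were at 0. The 6 fibroblast markers summed to 252 and 259 CPM in shCtrl against 148 and 145 in shUSP9X, with Dcn the most abundant at 123 and 121 CPM in shUSP9X. Of 7 endothelial markers, 4 (Cdh5, Cldn5, Emcn and Kdr) were at 0 and 2 were tested. Tek was lower, going from 9.92 and 10.4 to 5.51 and 6.23 CPM (33.6% of all genes tested were lower). Pecam1 was not called (log2 fold change 0.038, edgeR adjusted p = 0.952). Vwf, not tested, had 4 and 1 counts in shCtrl against 8 and 3 in shUSP9X. The 7 endothelial markers summed to 10.7 and 11.7 CPM in shCtrl against 6.88 and 7.18 in shUSP9X, and Tek made up most of this sum in each library. Of 7 lymphocyte markers, 6 were at 0. Each library is labelled as ID8 cells, and the labels name no other cell type. The part of these marker changes in the ABC results was not tested. In bulk libraries a change in the share of cells that express a gene and a change in its RNA per cell cannot be told apart.

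Of the 48 ABC genes, 23 had enough counts to be tested, as did 51.9% of all genes in the table. Another 9 were at 0 in each library (Abca6, Abca14, Abca15, Abca16, Abca17, Abcb5, Abcc6, Abcg3 and Abcg8), and 8 had at most 3 counts in each, the limit taken here for detection, which equals 0.173, 0.19, 0.152 and 0.178 CPM in the 4 libraries (shCtrl first). These 8 were Abca8a, Abca13, Abcb1a, Abcb4, Abcc8, Abcc9, Abcg1 and Abcg5. They include the sulphonylurea receptors Abcc8 and Abcc9, and the 2 potassium channel genes they pair with, Kcnj8 and Kcnj11, were at 0 in each library as well. Abcg1, a sterol exporter abundant in macrophages, had 0 and 0 counts in shCtrl against 0 and 2 in shUSP9X. The other 8 exceeded 3 counts in some library but did not pass the filter. Among these, Abca9 had 17 and 8 counts in shCtrl against 5 and 2 in shUSP9X, and Abcc2, a canalicular organic anion pump, had 0 and 1 counts in shCtrl against 4 and 8 in shUSP9X. Abca4, Abca12, Abcb9, Abcb11, Abcc12 and Abcd2 stayed between 0 and 11 counts.

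Among tested members, 20 (87.0%) differed between shCtrl and shUSP9X at an adjusted p under 0.05, with 67.3% of all 11448 genes tested doing so. In shUSP9X 10 members were lower (43.5%, against 33.6% of all genes) and 10 were higher (43.5%, against 33.8%). Abca2, Abca3 and Abcd4 were not called, and Abcc3 and Abcg4 passed the count filter through their higher group alone. The counts of this paragraph include Abcc3 as higher and Abcg4 as lower. Changes of more than 1.5-fold at an unadjusted p under 0.05 were found for 6 lower members, where 18.7% of all genes were lower by this rule, and for 5 higher members, where 10.8% were higher. The shUSP9X libraries lay below both shCtrl libraries for 11 members and above both for 10, and such separation held for 41.0% and 41.2% of all genes. The median size of the change, without its sign, was 0.58 on the log2 scale, against 0.38 over all genes, and the signed median was -0.10, against -0.001. Summed over the 48 members, the level was 1770 and 1770 CPM in shCtrl against 1850 and 1850 CPM in shUSP9X, or 0.179 and 0.179% and 0.183 and 0.183% of the counts. The plot of levels by subfamily gives each library.

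**Figure D1:**
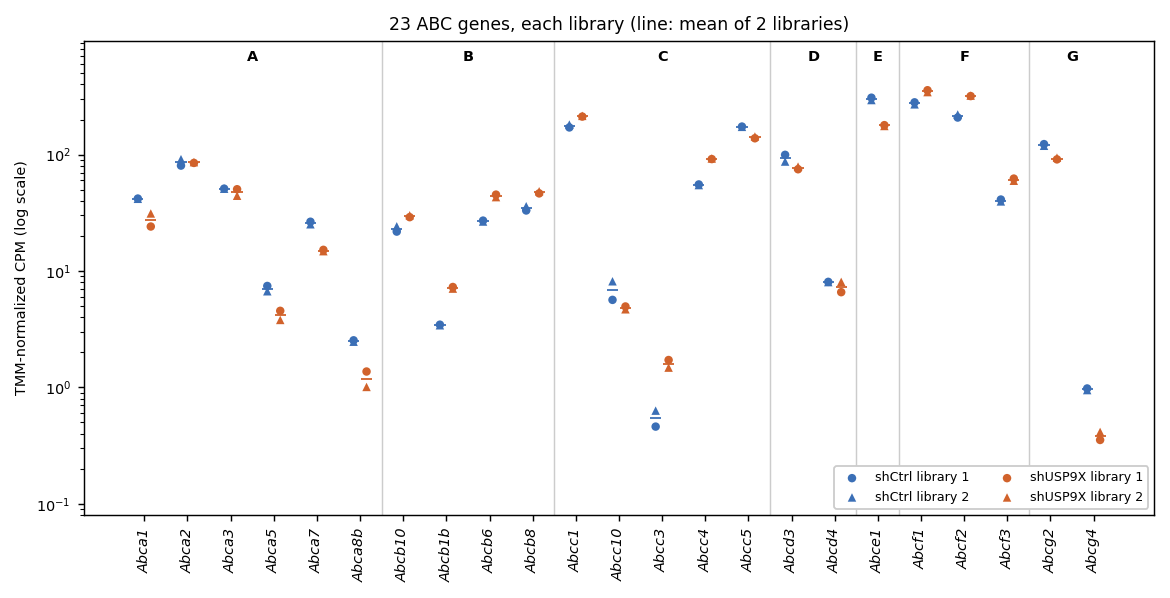
CPM after TMM normalization, on a log axis, for 23 ABC genes tested, ordered by subfamily A to G. Circles and triangles are libraries 1 and 2, blue for shCtrl and orange for shUSP9X, and short lines are means of 2 libraries. Abcd3, Abce1, both G genes and 5 of the A genes (Abca2 excepted) have both shUSP9X libraries below shCtrl, the 4 B genes and the 3 F genes sit higher, and C genes go both ways.

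The calls are given by subfamily, beside 33.6% lower and 33.8% higher over all genes. Of 6 tested A members 4 were lower and 0 higher, of 4 B members 0 were lower and 4 higher, and of 5 C members 2 were lower and 3 higher. Of 2 D members 1 was lower, the single E member was lower, the 3 F members were higher, and both G members were lower. Median log2 fold changes were -0.68 (A), 0.59 (B), 0.28 (C), -0.21 (D), -0.76 (E), 0.58 (F) and -0.85 (G), against -0.001 over all genes. Without Abcc3 and Abcg4, the members that passed the count filter through 1 group, 9 were lower and 9 higher of 21, the C median was -0.01 over 4 members, and G was left with Abcg2 at -0.385. No test of a difference between subfamilies was made.

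These directions stood beside a trend across all genes. Over the tested genes, the log2 fold change rose with the GC content of the transcript (Spearman's rho 0.447 across genes, which are not independent replicates), from a median of -0.88 in the lowest of 10 equal groups of genes by GC content to 0.25 in the ninth. Its rho with transcript length was -0.331. The trend is part of the difference between the groups, and the 2 cannot be told apart with these 4 libraries. The test was therefore repeated with a per-gene offset that removes the GC content and length trend, called the offset from here on, and its value is given for named genes where it ends, turns or makes a call. Among the marker genes above, the small rise of Krt19 (log2 fold change 0.12, adjusted p = 0.00274) turned to -0.24 with the offset (adjusted p = 2.4e-07), and the fall of Dcn (-0.46, adjusted p = 1.8e-09) was no longer called (-0.07, adjusted p = 0.164). With it 6 of the 8 epithelial markers were lower and 2 higher, and 2 of the 3 fibroblast genes were lower (all genes, 27.9% lower and 35.2% higher). Krt8 and Krt18 were then at 0.59 and 0.25, and Wt1 and Msln at -0.765 and -0.783. Usp9x was at -2.308 with the offset, which takes its longest coding transcript (11887 nt), a smaller fall than without it. The length that links its count and FPKM had a median of 7061 nt. With an offset on the annotated transcript nearest to that length (3019 nt), chosen after seeing the data, Usp9x was at -3.092. With the offset 5 members were lower (27.9% of all genes) and 14 higher (35.2% of all genes), and the median was 0.18, against 0.03 over all genes. Of the 20 calls, 14 kept their direction in both fits, 3 were no longer called and 3 were called in the other direction. The 14 were Abca7, Abcc5, Abcc10 and Abcg4, lower, and Abcb1b, Abcb6, Abcb8, Abcb10, Abcc1, Abcc3, Abcc4, Abcf1, Abcf2 and Abcf3, higher. Abcc3 and Abcg4, also among the members called with the offset, passed the count filter through their higher group alone. No weight is put on their calls in either fit. The 5 tested members with a GC content under 45% were all lower without the offset, where 70.3% of all genes under 45% were lower, and of the 18 others 5 were lower and 10 higher, where 22.1% and 41.5% of all such genes were. Over the 23 members the log2 fold change and GC content had a Pearson's r of 0.239 and a Spearman's rho of 0.0721, which is given as a description because the members share the same 4 libraries.

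**Figure D2:**
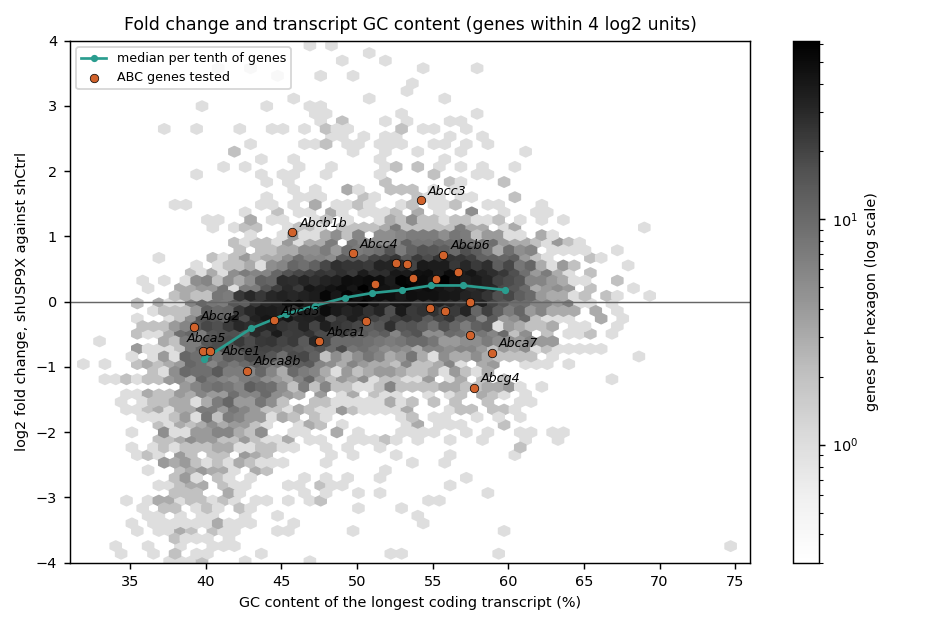
Log2 fold change (shUSP9X against shCtrl) by GC content of the longest coding transcript. Grey hexagons count all tested genes within 4 log2 units (90 genes lie beyond), the green line joins medians of 10 equal groups of genes from -0.877 at the low end to 0.178 at the high end, and orange points are 23 ABC genes, of which Abcg2, Abca5 and Abce1 sit at the low GC end.

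**Figure D3:**
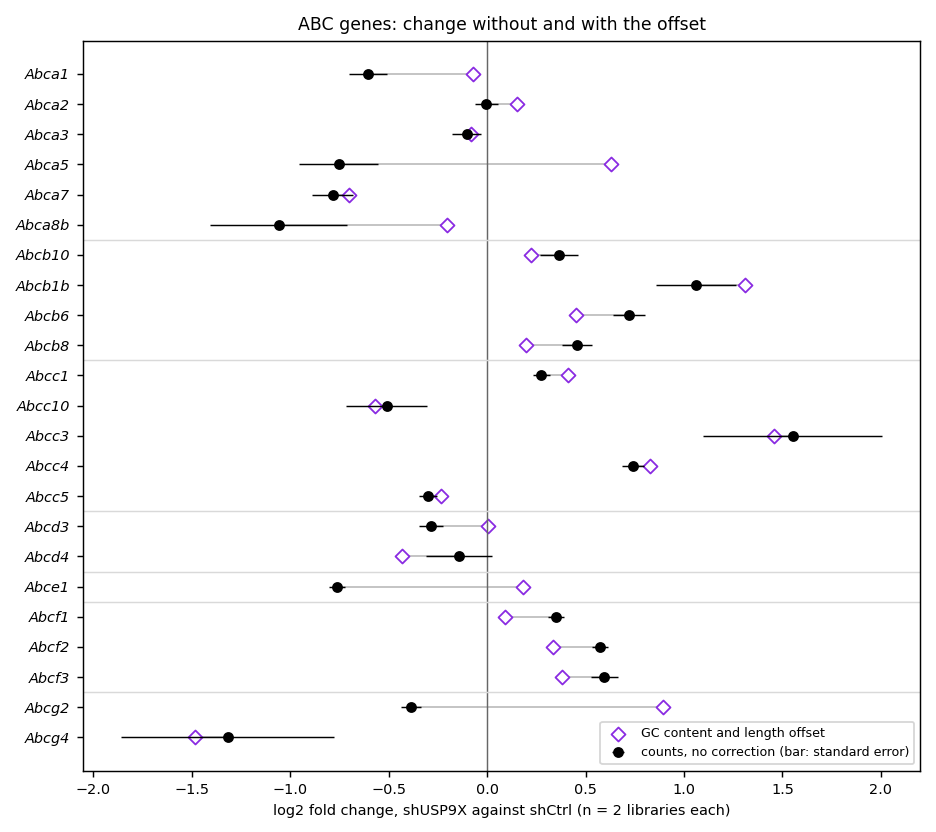
Log2 fold change of each tested ABC gene without correction (black points, bars are standard errors, n = 2 libraries per group) and after the offset for GC content and length (open diamonds). Abca5, Abce1 and Abcg2 cross from below 0 to well above 0, Abcd3 and Abca2 move from below 0 to 0.005 and 0.15, and the higher B, C and F genes stay above 0 in both fits.

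Subfamily A holds large lipid transporters. Abca1 (ENSMUSG00000015243, chr4:53030787-53159895, minus strand) exports cholesterol and phospholipid to apolipoprotein A-I. It stood at 41.9 and 41.7 CPM in shCtrl against 24.1 and 31.2 in shUSP9X, so that both shUSP9X libraries were lower. This gave a log2 fold change of -0.61 ± 0.10 (SE; edgeR, adjusted p = 3.8e-06), and with the offset it was -0.07 (adjusted p = 0.527). Abca7 (ENSMUSG00000035722, chr10:79996494-80015572, plus strand), a phospholipid exporter linked to Alzheimer's disease, stood at 26.5 and 25.2 CPM in shCtrl against 15.2 and 14.8 in shUSP9X, with groups well apart. Its log2 fold change was -0.78 ± 0.10 (adjusted p = 3e-07), and with the offset -0.70, so it was the A member that was lower in both fits.

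Abca5 (ENSMUSG00000018800, chr11:110269369-110337716, minus strand), a lysosomal member, went from 7.44 and 6.70 CPM in shCtrl to 4.55 and 3.80 in shUSP9X. Both shUSP9X libraries were lower in counts, with a log2 fold change of -0.75 ± 0.20 (adjusted p = 0.00167), but the offset gave 0.63 (adjusted p = 0.00779). Its transcript has a GC content of 39.8%. Abca8b (ENSMUSG00000020620, chr11:109932190-109995845, minus strand) is a less studied member of a gene cluster with Abca8a and Abca9. It had 2.54 and 2.47 CPM in shCtrl against 1.37 and 1.01 in shUSP9X, a log2 fold change of -1.06 ± 0.35 (adjusted p = 0.00945). With 17 to 44 counts in a library, the call was lost without shCtrl replicate 1 (adjusted p = 0.0583) or shUSP9X replicate 2 (adjusted p = 0.118), and with the offset the value was -0.21 (adjusted p = 0.623).

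Abca2 (ENSMUSG00000026944, chr2:25428703-25448540, plus strand), an endosomal and lysosomal lipid transporter known from myelin, had the highest FPKM (a level scaled for transcript length and library size) of the A genes. Its level was 80.4 and 91.3 CPM in shCtrl against 84.8 and 86.1 in shUSP9X, and the groups overlapped (log2 fold change -0.005 ± 0.06, adjusted p = 0.944; 0.15 with the offset, adjusted p = 0.0166). Abca3, the surfactant lipid transporter of lung lamellar bodies, had a log2 fold change of -0.10 (adjusted p = 0.216). In all, 14.3% of the 50-base stretches of its longest annotated transcript occur in another annotated gene, mainly the antisense gene D330041H03Rik, and the library kit is not stated to keep strand.

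The partners of Abca1 did not move with it in one direction. Of 16 genes of sterol efflux and its control 11 were tested, and 2 were lower, 4 higher and 5 not called (all genes, 33.6% lower and 33.8% higher), with a median log2 fold change of 0.07, against -0.001 over all genes. Rxra, the nuclear receptor that pairs with the liver X receptors, went from 53.0 and 48.2 CPM to 87.3 and 87.7 CPM (log2 fold change 0.79, adjusted p = 1.4e-11). Scarb1, which encodes the HDL receptor SR-BI, went from 28.1 and 31.5 to 55.2 and 46.4 CPM (0.77, adjusted p = 1.6e-08). With the offset 3 of the 11 were lower and 2 higher (all genes, 27.9% and 35.2%), with a median of -0.05, against 0.03 over all genes.

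Promoter sequence is shown for Abca1 and for the drug exporters Abcb1b and Abcc4. These are members past 1.5-fold with lipid or drug efflux roles that hold cores of the hypoxia or TGF-β response, the signaling the study addresses. Abca8b, also past 1.5-fold and with a hypoxia core, is not printed. Without shUSP9X replicate 1 the log2 fold change of Abca1 was -0.42. Windows run from 250 bases before to 50 bases after the RefSeq gene start (GRCm38.p6), and 38 of the 48 members matched a window, some with more than 1. The letters searched on both strands were ACGTG (core of the hypoxia response element), TGACNNNGC (core of the antioxidant response element) and CAGAC (Smad box). Over 32851 windows, 19.6% held ACGTG, 12.4% TGACNNNGC and 49.6% CAGAC. Capitals mark the matches, and positions count from the gene start, negative before it. The Abca1 window, chr4:53159846-53160145 on the minus strand, holds the palindrome CACGTG, which reads ACGTG on either strand, with its first base at -147, and neither of the other cores.
Abca1: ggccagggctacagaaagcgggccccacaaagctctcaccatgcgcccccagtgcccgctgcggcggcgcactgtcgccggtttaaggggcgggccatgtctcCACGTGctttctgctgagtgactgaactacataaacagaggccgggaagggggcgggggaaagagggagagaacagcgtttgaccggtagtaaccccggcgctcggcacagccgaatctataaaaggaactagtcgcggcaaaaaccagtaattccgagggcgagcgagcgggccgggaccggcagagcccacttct

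Of the 18 tested members with a window, 7 were higher and 9 lower in the fit without the offset. ACGTG was present for 3 of the 7 higher (Abcb1b, Abcc4 and Abcf1) and 2 of the 9 lower (Abca1 and Abca8b). CAGAC was present for 5 of the 7 and 3 of the 9, and TGACNNNGC for 1 of the 7 (Abcc4) and 2 of the 9 (Abca8b and Abcc10). A gene was counted if any of its windows held the letters, and for Abcc4 CAGAC lies in a window not printed. The shares over all windows are per window. On that unit the ABC members had 45 windows, of which CAGAC was in 17, ACGTG in 10 and TGACNNNGC in 7. With the offset the 7 higher genes kept their calls. Of the lower genes with a match, Abca1, Abca8b and Abcd3 were then not called and Abcg2 was called higher. Abcc5 and Abcc10 stayed lower. A match is a run of letters and no record of binding.

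In subfamily B, the 4 tested genes described here rose. Abcb1b (ENSMUSG00000028970, chr5:8798147-8866315, plus strand) encodes 1 of the mouse P-glycoproteins, the drug efflux pumps that carry paclitaxel and doxorubicin. It stood at 3.46 and 3.42 CPM in shCtrl against 7.29 and 7.06 in shUSP9X, so that shUSP9X was 2.09-fold higher with little spread within either group. On the log2 scale the change was 1.06 ± 0.20 (SE; edgeR, adjusted p = 5.4e-05), and 1.31 with the offset. In counts the level stayed low, at 60 and 54 in shCtrl against 143.98 and 119 in shUSP9X. The close copy Abcb1a, with which Abcb1b shares 18.0% of its 50-base stretches, had 0 and 0 counts in shCtrl against 1.02 and 3 in shUSP9X, so that few of the estimated counts had been placed there. The window of Abcb1b, chr5:8797897-8798196 on the plus strand, holds ACGTG (read on the other strand) from -198 and CAGAC (likewise) from -173.
Abcb1b: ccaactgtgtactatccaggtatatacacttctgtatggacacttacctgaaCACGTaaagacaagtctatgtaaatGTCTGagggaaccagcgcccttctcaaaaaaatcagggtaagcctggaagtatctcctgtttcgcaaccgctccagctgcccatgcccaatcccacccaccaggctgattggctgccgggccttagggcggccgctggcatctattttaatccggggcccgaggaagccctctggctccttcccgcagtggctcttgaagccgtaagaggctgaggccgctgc

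The other B genes that were tested encode proteins of mitochondria and of haem and iron metabolism. Abcb6 (ENSMUSG00000026198, chr1:75171717-75180392, minus strand), a porphyrin transporter, went from 27.1 and 26.6 CPM to 45.3 and 43.1 CPM, with both shUSP9X libraries higher. Its log2 fold change was 0.72 ± 0.08 (adjusted p = 1.5e-08), and 0.45 with the offset. On the same strand, the annotated gene Gm29253 shares 66.8% of the 50-base stretches of Abcb6, and the table has no row for it. Reads from the shared stretches cannot be assigned to 1 of the 2 genes.

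Abcb8 (ENSMUSG00000028973, chr5:24393663-24410054, plus strand), an inner-membrane protein tied to mitochondrial iron export, had the highest FPKM of subfamily B. It stood at 33.1 and 36.0 CPM in shCtrl against 46.4 and 48.4 in shUSP9X, with a log2 fold change of 0.46 ± 0.08 (adjusted p = 9.9e-06; 0.20 with the offset, adjusted p = 0.0235). Abcb10, an inner-membrane protein needed for haem synthesis in red cell precursors, had a log2 fold change of 0.36 ± 0.10 (adjusted p = 0.00155), and 10.3% of its exon bases lie opposite Gm45890.

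Genes of haem and iron-sulphur synthesis were looked at beside Abcb6, Abcb8 and Abcb10. Of 17 tested, 10 were higher, 1 lower and 6 not called, where 33.8% of all genes were higher and 33.6% lower, with a median log2 fold change of 0.32, against -0.001 over all genes. The mitochondrial carrier gene Slc25a39 went from 129 and 139 CPM to 197 and 210 CPM (log2 fold change 0.605, adjusted p = 2.3e-11). Alas1, which encodes the first enzyme of haem synthesis, went from 547 and 464 to 1185 and 880 counts (0.88, adjusted p = 2.9e-10). Glrx5 and Gfer, a glutaredoxin and a sulfhydryl oxidase of mitochondria, had log2 fold changes of 0.91 and 0.96 (adjusted p = 5.2e-10 and 1.8e-09). With the offset 8 of the 17 were higher and 5 lower, where 35.2% and 27.9% of all genes were, with a median of 0.115, against 0.03 over all genes.

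Subfamily C holds the multidrug resistance-associated proteins. Abcc4 (ENSMUSG00000032849, chr14:118482692-118706219, minus strand) encodes MRP4, an exporter of cyclic nucleotides, prostaglandins and some nucleoside drugs. It stood at 55.4 and 54.7 CPM in shCtrl against 91.5 and 92.5 in shUSP9X, a difference far beyond the spread within the groups. Its log2 fold change was 0.74 ± 0.06 (SE; edgeR, adjusted p = 1.2e-11), 0.83 with the offset, and between 0.66 and 0.92 over the alternatives. Its window at chr14:118706170-118706469 on the minus strand holds CACGTG with its first base at -205, and TGACNNNGC, read on the other strand, from -25. A RefSeq window for another start of Abcc4, chr14:118676882-118677181, holds TGACNNNGC from -23 and CAGAC from -51, and is not printed.
Abcc4: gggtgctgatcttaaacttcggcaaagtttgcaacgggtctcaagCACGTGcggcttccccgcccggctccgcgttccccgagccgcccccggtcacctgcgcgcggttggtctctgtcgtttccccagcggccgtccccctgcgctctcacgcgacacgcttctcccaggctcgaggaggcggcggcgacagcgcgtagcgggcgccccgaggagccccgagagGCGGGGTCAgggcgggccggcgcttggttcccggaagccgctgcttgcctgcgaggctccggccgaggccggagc

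Abcc3 (ENSMUSG00000020865, chr11:94343295-94392997, minus strand) encodes MRP3, an exporter of bile salts and glucuronides. It was at 0.461 and 0.632 CPM in shCtrl against 1.72 and 1.48 in shUSP9X, or 8 and 10 against 34 and 25 counts. This was a log2 fold change of 1.55 ± 0.46 (adjusted p = 0.00407). Abcc3 passed the count filter through its shUSP9X libraries alone, and the call was lost without shCtrl replicate 1 (1.34, adjusted p = 0.0608) or shUSP9X replicate 1 (1.44, adjusted p = 0.0865). Abcc1 (ENSMUSG00000023088, chr16:14361558-14475737, plus strand) encodes MRP1, which exports glutathione conjugates and several drugs. Over the 4 libraries its mean FPKM was level with that of Abcc5 (29.5 each), being the lower of the pair in shCtrl (27.2 against 33.1) and the higher in shUSP9X (31.8 against 25.8). By CPM, Abcc1 stood at 171 and 181 CPM in shCtrl against 212 and 215 in shUSP9X, a small rise with separate groups (log2 fold change 0.28 ± 0.04, adjusted p = 3.3e-06; 0.41 with the offset).

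Abcc5 and Abcc10 were the C members called lower. Abcc5, whose protein MRP5 exports cyclic nucleotides, stood at 174 and 173 CPM in shCtrl against 138 and 143 in shUSP9X (log2 fold change -0.30 ± 0.045, adjusted p = 1.9e-06; -0.235 with the offset). Abcc10, whose protein MRP7 carries taxanes, had 5.65 and 8.16 CPM in shCtrl against 4.96 and 4.69 in shUSP9X. Its log2 fold change of -0.51 ± 0.21 (adjusted p = 0.0314) leaned on the higher shCtrl library, being -0.22 without shCtrl replicate 2 (adjusted p = 0.428). Leaving out shUSP9X replicate 1 or 2 also ended the call (adjusted p = 0.0611 and 0.103).

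Genes that control drug efflux genes moved both ways. Of 12 tested, 3 were lower, 7 higher and 2 not called, where 33.6% of all genes were lower and 33.8% higher. The median log2 fold change was 0.39, against -0.001 over all genes. Epas1, which encodes HIF-2α, went from 24.0 and 25.7 CPM in shCtrl to 7.69 and 8.61 in shUSP9X (log2 fold change -1.61, adjusted p = 7.3e-12; -1.63 with the offset). Hif1a went from 454 and 438 to 231 and 238 CPM (-0.93, adjusted p = 2.2e-17), and with the offset its value was -0.08 (adjusted p = 0.0334). Among the higher genes, Trp53, which encodes p53, went from 170 and 177 to 313 and 293 CPM (0.81, adjusted p = 5.2e-15). Keap1, which encodes the adaptor that directs NRF2 to degradation, had a log2 fold change of 0.64 (adjusted p = 1.9e-10). With the offset 4 of the 12 were lower and 6 higher (all genes, 27.9% and 35.2%), with a median of 0.31.

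In subfamily D, which carries fatty acyl-CoA into peroxisomes and, for Abcd4, cobalamin out of lysosomes, neither tested member described here changed by more than 1.5-fold. Abcd3 (ENSMUSG00000028127, chr3:121758774-121815302, minus strand) encodes PMP70, a peroxisomal membrane protein for branched and dicarboxylic acids, and had the highest FPKM of the D genes. It stood at 99.5 and 87.1 CPM in shCtrl against 74.8 and 78.8 in shUSP9X, both below shCtrl. The log2 fold change was -0.28 ± 0.06 (SE; edgeR, adjusted p = 2.1e-04), and with the offset 0.005 (adjusted p = 0.945). Without shCtrl replicate 1, the higher shCtrl library, it was -0.18 (adjusted p = 0.0125). Abcd4 had a log2 fold change of -0.14 (adjusted p = 0.462), and -0.43 with the offset (adjusted p = 0.026).

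Of 23 other genes tested on a list of peroxisome partners, which includes the cobalamin genes Lmbrd1, Mmachc and Mmadhc that do not act in peroxisomes, 3 were lower, 7 higher and 13 not called, where 33.6% and 33.8% of all genes were lower and higher, with a median log2 fold change of 0.05. With the offset 3 of the 23 were lower and 10 higher (all genes, 27.9% and 35.2%), with a median of 0.17. Lmbrd1 went from 0.002 (adjusted p = 0.98) to 0.69 with the offset (adjusted p = 1.4e-08). Pex14, part of the peroxisomal import pore, went from 30.9 and 33.4 to 50.5 and 47.7 CPM (0.615, adjusted p = 1.1e-07). Pex16, which builds peroxisomal membranes, had a log2 fold change of 0.63 (adjusted p = 2.2e-04).

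Abcf2, Abcf1 and Abce1 had the highest FPKM of the members described. Over the 4 libraries the mean was 104 FPKM for Abcf2, 99.7 for Abcf1, 63.2 for Abce1 and 53.0 for Abcg2, ahead of Abcc1 and Abcc5 with 29.5 each, and Abcf3 came eighth with 18.1. The order of the first pair was not the same in the groups, Abcf1 having 88.5 FPKM and Abcf2 84.3 in shCtrl against 111 and 123 in shUSP9X. Abce1 (ENSMUSG00000058355, chr8:79683462-79711740, minus strand) encodes the factor that splits ribosomes after termination. It stood at 308 and 294 CPM in shCtrl against 179 and 176 in shUSP9X, 1.69-fold lower with tight groups. The log2 fold change was -0.76 ± 0.04 (SE; edgeR, adjusted p = 6.7e-15), but its GC content is 40.3% and with the offset it turned to 0.18 (adjusted p = 1.3e-04).

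The F genes went up together in both fits. Abcf2 (ENSMUSG00000028953, chr5:24565345-24577467, minus strand) had 208 and 221 CPM in shCtrl against 318 and 321 in shUSP9X (log2 fold change 0.58 ± 0.04, adjusted p = 1.5e-12; 0.33 with the offset). Abcf3 (ENSMUSG00000003234, chr16:20548577-20561379, plus strand), tied to antiviral defence and cell growth, had 41.1 and 39.6 CPM in shCtrl against 62.2 and 59.6 in shUSP9X (0.595 ± 0.07, adjusted p = 2.1e-08; 0.38 with the offset). Abcf1, which binds eIF2 and aids translation initiation, had 281 and 270 CPM in shCtrl against 357 and 344 in shUSP9X. Its log2 fold change was 0.35 ± 0.04 (adjusted p = 1.2e-08), and 0.09 with the offset (adjusted p = 0.0383). Summed over the subfamily the level was 531 and 530 CPM in shCtrl against 737 and 725 in shUSP9X. Their sum of FPKM was 188 and 187 in shCtrl against 255 and 255 in shUSP9X, of 490 and 488 and of 508 and 514 for the 48 members.

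The translation factors that Abce1 and the F proteins work with went both ways. Of 15 tested, 7 were lower and 8 higher (all genes, 33.6% and 33.8%), with a median log2 fold change of 0.13. Eif2s2, which encodes the β subunit of eIF2, went from 399 and 370 to 141 and 157 CPM (-1.37, adjusted p = 4.8e-19; -0.80 with the offset). Eif2b1, which encodes a subunit of the exchange factor of eIF2, went from 63.0 and 68.0 to 120 and 115 CPM (0.84, adjusted p = 4.4e-13). With the offset 3 of the 15 were lower and 10 higher (all genes, 27.9% and 35.2%), with a median of 0.33.

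Subfamily G had 2 tested members. Abcg2 (ENSMUSG00000029802, chr6:58584523-58695676, plus strand) encodes BCRP, the pump that marks side population cells and carries topotecan and other drugs. It stood at 123 and 119 CPM in shCtrl against 90.9 and 94.1 in shUSP9X, lower in both shUSP9X libraries. The log2 fold change was -0.385 ± 0.05 (SE; edgeR, adjusted p = 2e-07). With the offset it was 0.89 (adjusted p = 6e-14). That offset takes the longest coding transcript, of 5717 nt and 39.2% GC, whereas the length that links the count and FPKM of Abcg2 in the table was 2022, 1918, 2129 and 2026 nt in the 4 libraries. With an offset on the annotated transcript nearest to that length, of 2178 nt and 43.2% GC, a choice made after seeing the data, the value was 0.06 (adjusted p = 0.275). Over the members that offset gave 5 lower (28.1% of all genes) and 13 higher (35.7% of all genes). The sign of the change of Abcg2 was not the same in the 3 fits.

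Abcg4 (ENSMUSG00000032131, chr9:44273188-44288615, minus strand), a sterol transporter of neurons, had 0.98 and 0.949 CPM in shCtrl against 0.354 and 0.415 in shUSP9X, or 17 and 15 against 7 and 7 counts. The log2 fold change was -1.32 ± 0.54 (adjusted p = 0.0345), and Abcg4 passed the count filter through its shCtrl libraries alone. The call was lost when any 1 library was left out (adjusted p = 0.146 and 0.117 without shCtrl replicate 1 and 2, 0.254 and 0.161 without shUSP9X replicate 1 and 2).

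The deposited FPKM values did not follow the counts for Abca5 and Abcg4. For Abca5, the transcript length that links count and FPKM was 7368 and 8230 nt in shCtrl against 3558 and 4909 nt in shUSP9X, and its mean FPKM was 0.92 in shCtrl against 1.02 in shUSP9X. For Abcg4 the lengths were 3667 and 3481 nt in shCtrl against 1358 and 1380 nt in shUSP9X, and the mean FPKM was 0.273 and 0.278. These were the 2 tested members whose length was more than 1.5 times shorter in shUSP9X, which held for 77 of 11409 genes, or 0.675%. For 19 members the group means of this length were within 5% of each other. A different estimate of transcript use in the 2 groups and an error of that estimate at low counts cannot be told apart from a gene table.

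**Figure D4:**
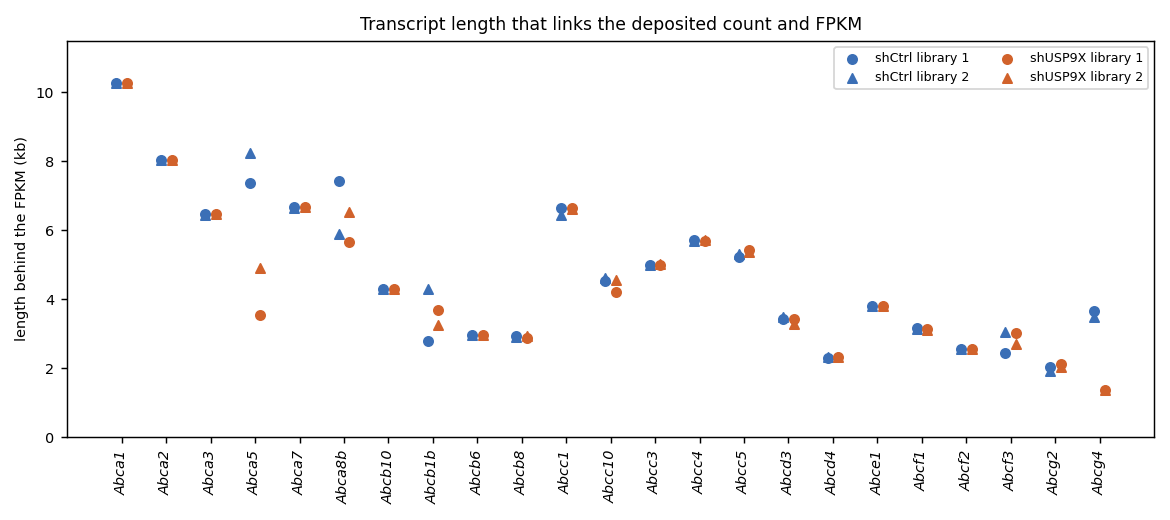
Transcript length in kilobases that links the deposited count to the deposited FPKM, for each of 23 ABC genes tested and each library (blue shCtrl, orange shUSP9X, circles and triangles for libraries 1 and 2). Abca5 and Abcg4 stand apart, at 7368 and 8230 nt and at 3667 and 3481 nt in shCtrl, with lower values in shUSP9X.

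ABC proteins whose genes carry other names were looked at beside the family. Tap1 and Tap2 encode the transporter that feeds peptides to MHC class I. Tap1 went from 6.69 and 6.83 CPM in shCtrl to 20.3 and 19.5 in shUSP9X, a log2 fold change of 1.56 ± 0.13 (adjusted p = 6.1e-11; 1.31 with the offset). Tap2 went from 18.5 and 16.8 to 25.6 and 29.6 CPM (0.64 ± 0.11, adjusted p = 7.1e-06; 0.40 with the offset). Cftr, the chloride channel gene of the C subfamily, had 21 and 25 counts in shCtrl against 31 and 27 in shUSP9X, with a log2 fold change of 0.19 (adjusted p = 0.676). With the offset Cftr was called higher, at 1.17 (adjusted p = 0.00871), from a transcript of 41.3% GC.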

How the data were processed

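The authors deposited, per gene and library, an estimated count, not normalized, and an FPKM value. The submitters' processing notes name fastp 0.18.0, Bowtie2 2.2.8, HISAT2, StringTie 1.3.1 and RSEM, and the paper names GRCm38. Between 6.4 and 6.69% of the counts in a library, zeros included, were not whole, so counts were rounded, filtered with filterByExpr and TMM-normalized. The quasi-likelihood F-test (edgeR 4.0.16 under R 4.3.3) was run on 11448 genes and p-values were adjusted by Benjamini-Hochberg (common biological coefficient of variation 0.0352). Adjusted p was called under 0.05. CPM is given after TMM, and n is 2 libraries per group. GC content, length and coordinates came from GENCODE M21 (known for 99.8% of tested genes), with a loess offset (span 0.3) as an alternative. Values in each library are printed for members called with a change above 1.5-fold and for the member of highest FPKM in each subfamily, and for partner lists at most 4 such genes. Others were named after their values were seen. Results for 2 members are not reported here. Members and lists were chosen with earlier results of these data known. The fit was tested on simulated data. Alternatives were other scalings, DESeq2 1.42.0, other filters, limma 3.58.1 on log2(FPKM + 0.1) and log2(FPKM + 1), each library left out, a replicate block and the offset. The test had been planned for whole-number counts. No molecular identifiers are described, and floors cover counting error only.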

Additional observations from a re-analysis of the deposited data

How the results depend on the processing

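With the offset (alone, with a replicate block, and on the transcript nearest to the length behind the FPKM, the last chosen after seeing the data) the lower ABC genes numbered 5, 5 and 5 in place of 10, those past the fold cutoff 2, 2 and 2 in place of 6, and the median log2 fold change was 0.184, 0.184 and 0.22 in place of -0.103. In the same order the values were 0.63, 0.627 and 0.709 for Abca5, 0.005, 0.006 and 0.067 for Abcd3, 0.184, 0.184 and 0.22 for Abce1, 0.893, 0.893 and 0.059 for Abcg2 and 0.15, 0.151 and 0.249 for Abca2. Abca1 was at -0.07 and -0.073, then 0.051. The cause was not tested. With limma on log2(FPKM + 1) and log2(FPKM + 0.1), which tested 19 members on that scale, the lower genes numbered 6 and 6, those past the fold cutoff 2 and 3 lower and 3 and 3 higher, and the median was -0.03 and -0.032. The median was 0.286 with DESeq2 and 0.288 with no filter beyond 1 count, which tested 39 members, and -0.145 to 0.008 with a library left out (0.008 without shUSP9X replicate 1). Abca2, not called, was at 0.028 with upper quartile scaling, 0.004 with DESeq2, 0.006 with no filter, and -0.088 to 0.092 with a library left out (0.092 without shCtrl replicate 2, 0.009 without shUSP9X replicate 1). DESeq2 ended the calls of Abca8b, Abcc3, Abcc10 and Abcg4, at log2 fold changes of -1.06, 1.566, -0.504 and -1.319. Limma on log2(FPKM + 1) and log2(FPKM + 0.1) ended that of Abcc10 (-0.264 and -0.43). With no filter beyond 1 count the call of Abcg4 was lost (-1.304, edgeR adjusted p = 0.146). With a library left out 7 to 9 members were lower and 9 to 10 higher. Under the other scalings the all-gene median lay between -0.029 and 0.032.

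Replicate numbers did not pair the libraries, since the differences between replicates 1 and 2 correlated at -0.0453 between the groups. With the replicate block 9 members were lower and 10 higher, Abcg4 alone being lost (log2 fold change -1.317, adjusted p = 0.0523). Usp9x kept its direction and call in each alternative (-3.907 to -2.308, the latter with the offset).

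Members at 3 counts or fewer per library are beyond what this depth resolves, and the calls of the low members Abca8b, Abcc3 and Abcg4 did not hold with each library left out in turn.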

Other observations

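A few genes beside the family differed between libraries of 1 group, and were picked after their values had been seen. Apoa1, which encodes the main acceptor of the cholesterol that Abca1 exports, had 3 and 0 counts in shCtrl against 3 and 47 in shUSP9X. Apoe, another acceptor, had 59 and 61 counts in shCtrl against 46 and 92 in shUSP9X (log2 fold change 0.08, edgeR adjusted p = 0.828). Col1a2 had 1 and 0 counts in shCtrl against 0 and 12 in shUSP9X. For these genes shUSP9X replicate 2 stood above the other libraries. Apoa1 and Col1a2 did not pass the count filter and were not tested, and Apoe was tested and not called.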
